A study of Mus musculus with 19 samples.

Results

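Genes expressed in cells of the Foxd1 lineage were compared with those of the remaining cells of the mouse embryonic kidney at embryonic stage E14.5. The comparison covered every gene with a value of 1 or more in at least 2 of the 4 libraries, which held for 12384 of the 24454 names in the E14.5 table. The Tdt+ and Tdt- groups had 2 libraries each, all from kidneys of the CFW strain that carried the allele Foxd1Cre;Tdt. In this design Cre recombinase made under control of Foxd1 switches on the Tdt reporter, and the reporter then stays on in all descendants. Both groups therefore carry the same allele, and Tdt+ marks a history of Foxd1 expression, not its present level. The labels do not say that the libraries came from separate embryos or sorts, and the p-values therefore rest on a spread among libraries that may be technical. The study as a whole had 19 libraries of CFW kidney cells, made with a stranded mRNA kit from RNA isolated with the RecoverAll or RNeasy Micro kit. Its 15 libraries at E16.5, in a separate table, were of GFP+ and GFP- cells from Six2TGC/+ kidneys, and of SIX2+ cells, SIX2- cells and nephrogenic zone cells with no allele given, 3 libraries each.

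Stromal progenitors are mesenchymal cells that express the forkhead factor Foxd1 and surround the cap mesenchyme, in which nephron progenitors reside around the tips of the branching ureteric bud. Their descendants become the interstitial fibroblasts of cortex and medulla, the pericytes, the mesangial cells of the glomerulus and the vascular smooth muscle, including renin cells. Cortical stroma is a known source of retinoic acid, which acts on the ureteric tip, and signals from stroma also bear on the balance between self-renewal and differentiation of nephron progenitors.

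The libraries differed in depth, with an estimated 9.44 M and 8.41 M reads in the Tdt+ libraries and 30.5 M and 26.5 M reads in the Tdt- libraries. Levels are in RPKM, which corrects read numbers for transcript length and for depth, and differences are on the scale of log2(RPKM + 1), which understates changes of low genes. A gene was called when limma's moderated test gave an adjusted p under 0.05 over all genes tested. By this rule 151 genes, or 1.22% of those tested, were higher in Tdt+ than in Tdt- cells, and 893 genes (7.21%) were lower, so that 8.43% were called in either direction. A test of a single gene by exact permutation of 2 against 2 libraries cannot go below a two-sided p of 0.333.

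The label was checked on the markers of cortical stroma. Foxd1 (ENSMUSG00000078302.5, mm10 chromosome 13, 98354242 to 98359305, plus strand) was at 205 and 102 RPKM in Tdt+ libraries 1 and 2, against 29.9 and 25.2 RPKM in Tdt- libraries 1 and 2. Its difference was 2.35 ± 0.34 (log2, SE; adjusted p = 0.00584). Its mean in Tdt- cells was 17.97% of that in Tdt+ cells, so the Tdt- libraries were not free of Foxd1 transcripts. Ntn1, a secreted guidance cue of the netrin family (chromosome 11, 68209364 to 68400823, minus strand), had 200 and 141 RPKM in Tdt+ cells, against 28.3 and 33.6 RPKM in Tdt- cells (2.40 ± 0.26, adjusted p = 0.00214). Crabp1, a cytoplasmic retinoic acid binding protein (chromosome 9, 54764748 to 54773110, plus strand), had 122 and 143 RPKM in Tdt+ cells, against 28.9 and 24.7 RPKM in Tdt- cells (2.27 ± 0.23, adjusted p = 0.00169). Aldh1a2, the main retinoic acid synthesizing enzyme of the embryo (chromosome 9, 71215789 to 71296243, plus strand), had 733 and 874 RPKM in Tdt+ cells, against 159 and 181 RPKM in Tdt- cells (2.23 ± 0.35, adjusted p = 0.00798). All 4 markers lay above both Tdt- libraries in both Tdt+ libraries, and they were 4.72 to 5.57 times as high by the ratio of means. Six2, the transcription factor that maintains nephron progenitors, went the other way, with 0.650 and 2.14 RPKM in Tdt+ cells, against 117 and 96.6 RPKM in Tdt- cells (−5.56 ± 0.33, adjusted p = 0.000263). The mean of Six2 in Tdt+ cells was 1.30% of that in Tdt- cells. In bulk libraries fewer cells of a type and less RNA per cell cannot be told apart. Foxd1 and Aldh1a2 lost their calls without Tdt- library 1 (adjusted p = 0.0515 and 0.398) or Tdt- library 2 (0.0876 and 0.321), with the direction kept.

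**Figure D1:**
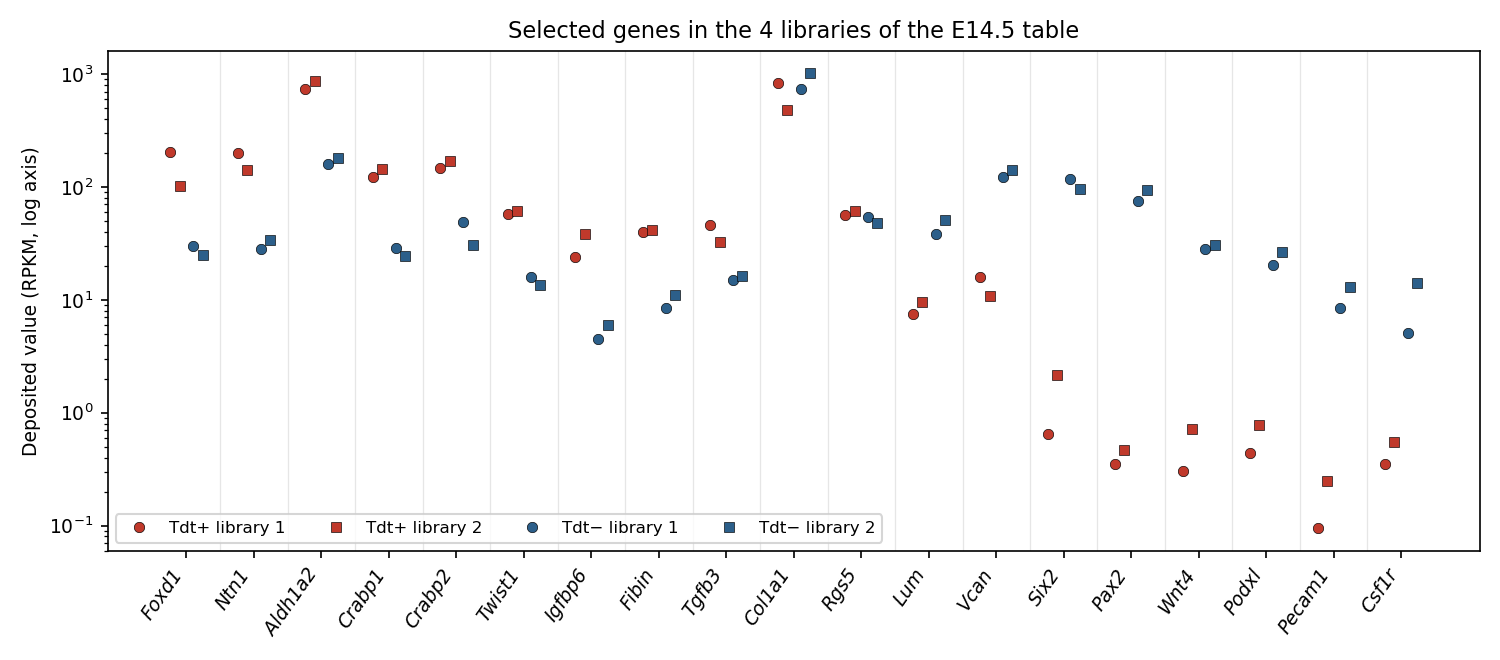
Deposited values (RPKM, log axis) of 19 genes in the 2 Tdt+ libraries (red) and the 2 Tdt- libraries (blue), with library 1 as circles and library 2 as squares. Stromal genes from Foxd1 to Tgfb3 lie above both Tdt- libraries, Col1a1 overlaps between the groups, and Lum, Vcan and the genes of nephron, vessel and macrophage at the right lie below them.

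The 2 directions differed in size as well as in number. Among the 151 genes called higher the median difference was 1.26 and the largest was 2.42, and 10 of them reached 2. Among the 893 called lower the median size was 1.46 and the largest was 5.92, with 204 at 2 or more and 45 at 3 or more. Of the genes called lower, 526 had passed the filter on low values through the Tdt- libraries alone, as had 1145 of all genes. Of those called higher, 20 had passed through the Tdt+ libraries alone, as had 143 of all genes. Here alone means that both libraries of that group, but not both of the other, were at 1 or more. The filter thus favoured a difference in that direction. Among the 10923 genes with a value of 1 or more in all 4 libraries, 131 were called higher and 367 lower. The median difference over all genes tested was −0.04.

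The split between directions moved with the scaling. It was 239 higher and 483 lower after quantile normalisation, 61 and 1064 in TPM (transcripts scaled to an equal total per library, where the median of all genes moved to −0.29), and 202 and 575 with a trend on gene length removed. Without Tdt- library 1 the counts were 13 higher and 420 lower, without Tdt- library 2 they were 9 and 333, without Tdt+ library 1 they were 1278 and 2058, and without Tdt+ library 2 they were 295 and 938.

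**Figure D2:**
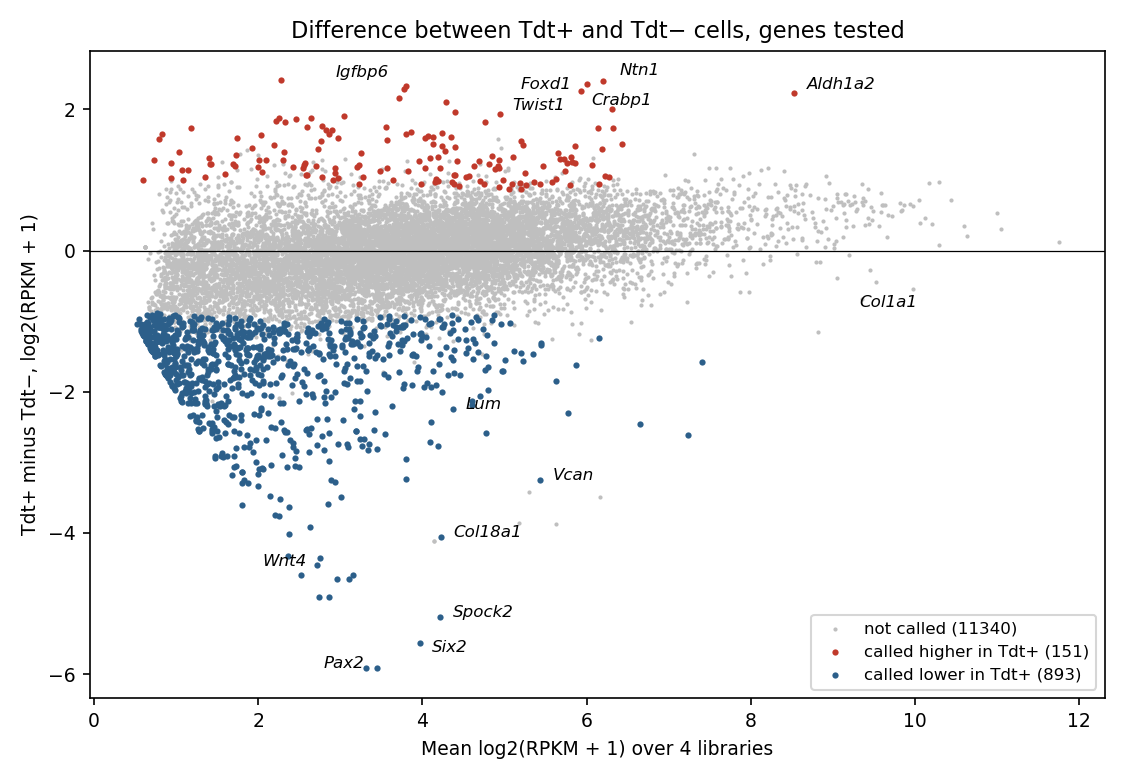
Difference between Tdt+ and Tdt- cells (log2 of RPKM + 1) against the mean level over the 4 libraries, for the 12384 genes tested. The 151 genes called higher (red) end near 2.4, whereas the 893 called lower (blue) reach −5.92, with Pax2, Uncx and Six2 lowest.

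Gene length moved with the comparison. Over 11993 genes with an annotated exonic length, the median difference was 0.28 in the group with the shortest genes (median 1.73 kb) and −0.33 in the group with the longest (median 10.02 kb), with 0.09, −0.04 and −0.14 in the 3 groups between, each of 2398 or 2399 genes. Spearman's rho across these genes was −0.38, given as a description since genes of a library share their depth and handling. The slope was steeper between libraries 2, from 0.45 to −0.51 over the 5 groups, than between libraries 1, from 0.09 to −0.19. Libraries 1 and 2 of the Tdt+ group also differed by length, with medians from −0.26 to 0.26 (library 1 minus library 2), more than those of the Tdt- group. Genes called higher numbered 59 in the shortest group and 11 in the longest, and genes called lower 116 and 293. The part of length in any single difference was not tested; a fit with the length trend removed is given where it ends the call of a gene described below.

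**Figure D3:**
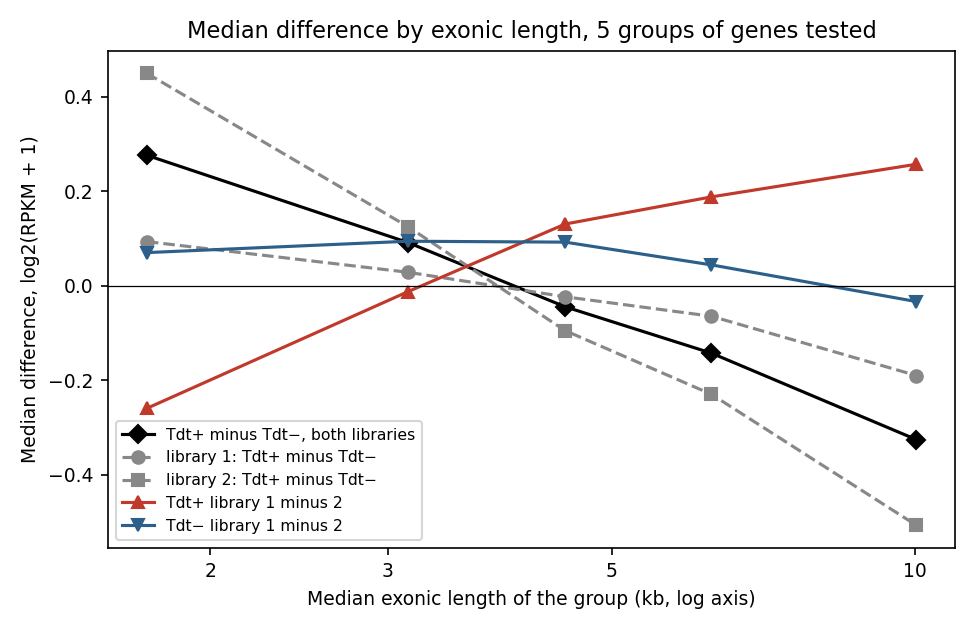
Median difference (log2 of RPKM + 1) in 5 groups of 2398 or 2399 genes by exonic length, against the median length of the group (kb, log axis). Tdt+ minus Tdt- (black) runs from 0.28 to −0.33, steeper between libraries 2 than between libraries 1 (grey), and Tdt+ library 1 minus library 2 (red) runs the other way.

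Of 15 genes of cortical stromal progenitors, 9 rose in Tdt+ cells (1.22% of all genes did) and none fell (7.21% did). Their median difference was 1.05, against −0.04 over all genes tested. The list holds the 4 markers checked above, whose calls are therefore not new here, and it was chosen with earlier results of these data known. Beside the 4 markers the genes called higher were Fibin, a small secreted protein, Smoc2, a matricellular calcium-binding protein, Dhrs3, which reduces retinaldehyde, the Wnt antagonist Sfrp1 and the retinoic acid receptor Rarb. Fibin had 40.0 and 41.3 RPKM in Tdt+ cells, against 8.50 and 11.02 RPKM in Tdt- cells (1.96 ± 0.23, adjusted p = 0.00270). Smoc2 had 66.5 and 57.1 RPKM in Tdt+ cells, against 18.1 and 25.0 RPKM in Tdt- cells (1.49 ± 0.24, adjusted p = 0.00945). For both genes the groups were well apart and the Tdt+ libraries close together. Members that were not called included Meis1, a TALE homeobox factor of stroma, at 102 and 118 RPKM in Tdt+ cells, against 48.9 and 66.0 RPKM in Tdt- cells (0.93 ± 0.25, adjusted p = 0.0659). Tcf21, a bHLH factor of kidney mesenchyme and podocytes, was at 93.7 and 76.0 RPKM in Tdt+ cells, against 131 and 117 RPKM in Tdt- cells (−0.55 ± 0.25, adjusted p = 0.246). Only 2 members of the list were called when no filter on low values was used. With Tdt- library 1 left out, the count of called members was 3, as it was without Tdt- library 2.

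Among the 15 genes with the largest differences upward, at a mean of 5 RPKM or more, 14 are given here, which were in descending order Ntn1, Foxd1, Igfbp6, Crabp1, Aldh1a2, C1qtnf2, Vstm2b, Crabp2, Fibin, Twist1, Tcf15, Rxfp2, Aox3 and Sult1a1. Igfbp6, which binds insulin-like growth factors with a preference for IGF2, had 23.97 and 38.5 RPKM in Tdt+ cells, against 4.49 and 6.04 RPKM in Tdt- cells (2.34 ± 0.29, adjusted p = 0.00346). Vstm2b, an immunoglobulin-domain membrane protein, had 38.5 and 40.3 RPKM in Tdt+ cells, against 7.73 and 9.14 RPKM in Tdt- cells (2.10 ± 0.22, adjusted p = 0.00186). C1qtnf2, a secreted protein of the C1q and TNF family, had 22.9 and 31.1 RPKM in Tdt+ cells, against 4.91 and 5.49 RPKM in Tdt- cells (2.16 ± 0.25, adjusted p = 0.00267). Lower in level were Rxfp2, a receptor for insulin-like peptide 3, at 10.02 and 6.60 RPKM in Tdt+ cells, against 1.86 and 1.15 RPKM in Tdt- cells, and the aldehyde oxidase Aox3, at 11.3 and 10.7 RPKM against 2.06 and 2.46 RPKM. In none of the 14 genes did the groups overlap, which the rule for naming required. The calls of Rxfp2, Aox3, Sult1a1 and Tcf15 were lost when either Tdt- library was left out.

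Transcription factors of stroma divided. Of 39 tested members of this list, 5 were called higher (1.22% of all genes were) and 4 lower (7.21% of all genes were), with a median of 0.01. The 5 included Foxd1, the marker checked above, whose call is therefore not new here. The bHLH factors Twist1 and Twist2, regulators of mesenchymal identity, rose together. Twist1 had 58.0 and 60.6 RPKM in Tdt+ cells, against 15.9 and 13.6 RPKM in Tdt- cells (1.94 ± 0.22, adjusted p = 0.00227), and Twist2 had 28.3 and 28.5 RPKM, against 8.44 and 8.64 RPKM (1.62 ± 0.22, adjusted p = 0.00452). Ebf3, an early B-cell factor family member, had 37.8 and 31.5 RPKM in Tdt+ cells, against 9.90 and 11.3 RPKM in Tdt- cells (1.61 ± 0.23, adjusted p = 0.00528). The zinc finger repressor Hic1 was at 201 and 81.5 RPKM in Tdt+ cells, against 42.6 and 33.3 RPKM in Tdt- cells (1.74 ± 0.40, adjusted p = 0.0369), a wide spread between the Tdt+ libraries like that of Foxd1. Tcf15, a bHLH factor known from the somite and outside this list, had 14.8 and 15.2 RPKM in Tdt+ cells, against 3.23 and 3.33 RPKM in Tdt- cells (1.90 ± 0.24, adjusted p = 0.00346). The higher calls numbered 1 when either Tdt- library was left out and 11 with the length trend removed, and Hic1 was not called in TPM or after quantile normalisation.

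Lower in Tdt+ cells were Lmx1b, a LIM homeobox factor of podocytes, the zinc finger factor Zeb2, the Teashirt factor Tshz3 of periureteric mesenchyme and the Notch effector Heyl. Lmx1b was at 0 and 0.195 RPKM in Tdt+ cells, against 6.73 and 7.19 RPKM in Tdt- cells (−2.86 ± 0.24, adjusted p = 0.000800). It had passed the filter through the Tdt- libraries alone, the group where it is high. Zeb2 had 10.8 and 10.1 RPKM in Tdt+ cells, against 32.0 and 42.6 RPKM in Tdt- cells (−1.73 ± 0.24, adjusted p = 0.00487). Tshz3 had 3.84 and 2.96 RPKM in Tdt+ cells, against 8.58 and 14.2 RPKM in Tdt- cells (−1.46 ± 0.30, adjusted p = 0.0240). Tbx18, the T-box factor that marks the ureteric mesenchyme, was not called, at 5.30 and 2.74 RPKM in Tdt+ cells, against 11.3 and 6.26 RPKM in Tdt- cells (−0.96 ± 0.36, adjusted p = 0.159). Meis2, another TALE factor, was not called, at 97.1 and 101 RPKM in Tdt+ cells, against 64.6 and 78.3 RPKM in Tdt- cells (0.47 ± 0.24, adjusted p = 0.288). When Tdt- library 1 was left out the lower calls were 2 and without Tdt- library 2 they were 1.

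Of 14 tested retinoid genes 6 rose in Tdt+ cells (1.22% of all genes did) and none fell, with a median of 0.63. Beside Aldh1a2 and Crabp1 these were Crabp2, Dhrs3, Rxrg and Rarb. Aldh1a2, Crabp1, Dhrs3 and Rarb were already counted in the cortical stromal list. Crabp2, which passes retinoic acid to nuclear receptors, had 146 and 171 RPKM in Tdt+ cells, against 49.1 and 30.4 RPKM in Tdt- cells (2.01 ± 0.29, adjusted p = 0.00568). Dhrs3 had 82.0 and 90.9 RPKM in Tdt+ cells, against 34.5 and 36.7 RPKM in Tdt- cells (1.26 ± 0.22, adjusted p = 0.0124). The receptors were lower in level. Rarb had 44.2 and 44.1 RPKM in Tdt+ cells, against 22.6 and 24.6 RPKM in Tdt- cells (0.88 ± 0.21, adjusted p = 0.0424), and Rxrg had 3.12 and 4.92 RPKM, against 1.02 and 1.18 RPKM (1.23 ± 0.27, adjusted p = 0.0299). Rarg and Rara were not called, at 0.75 ± 0.29 and 0.43 ± 0.22. Stra6 and Rdh10 were not called. Stra6, the retinol transporter, was at 10.54 and 8.93 RPKM in Tdt+ cells, against 18.8 and 18.7 RPKM in Tdt- cells (−0.89 ± 0.23, adjusted p = 0.0541), and Rdh10, which makes retinaldehyde, was at 24.4 and 18.1 RPKM, against 28.8 and 29.4 RPKM (−0.45 ± 0.23, adjusted p = 0.303). Of the degrading enzymes, Cyp26b1 was at 2.65 and 1.44 RPKM in Tdt+ cells, against 3.06 and 1.89 RPKM in Tdt- cells, with overlap, and Cyp26a1 and Cyp26c1 were under 1 RPKM in all 4 libraries. Only 1 member of the list was called when no filter on low values was used. Without Tdt- library 1 the list had 2 calls and without Tdt- library 2 it had 1, that of Crabp1, and in TPM it had 4.

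Rarb is known as a direct target of retinoic acid, and its upstream sequence is shown for that reason, beside those of Foxd1 and Aldh1a2 as the leading stromal genes and of Six2 as the leading nephron progenitor gene. Each is the 250 bases before the annotated start (RefSeq, GRCm38.p6), 5′ to 3′ on the strand of the gene. In Rarb (chr14:16575477-16575726, minus strand) capitals mark a direct repeat with a spacing of 5, the arrangement of a retinoic acid response element. In Foxd1 (chr13:98353995-98354244, plus strand), Aldh1a2 (chr9:71215539-71215788, plus strand) and Six2 (chr17:85688255-85688504, minus strand) they mark CCAAT, a common promoter box.
Rarb upstream: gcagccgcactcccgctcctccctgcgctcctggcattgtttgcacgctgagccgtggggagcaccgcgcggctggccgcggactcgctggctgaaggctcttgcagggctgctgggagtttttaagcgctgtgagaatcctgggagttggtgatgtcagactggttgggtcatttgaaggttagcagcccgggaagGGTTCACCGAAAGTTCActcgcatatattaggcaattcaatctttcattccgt
Aldh1a2 upstream: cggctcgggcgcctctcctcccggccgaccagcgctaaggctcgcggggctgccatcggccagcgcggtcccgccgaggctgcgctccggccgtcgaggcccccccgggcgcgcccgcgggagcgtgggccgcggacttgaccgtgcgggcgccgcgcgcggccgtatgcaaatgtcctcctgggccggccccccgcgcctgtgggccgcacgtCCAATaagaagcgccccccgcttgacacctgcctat
Foxd1 upstream: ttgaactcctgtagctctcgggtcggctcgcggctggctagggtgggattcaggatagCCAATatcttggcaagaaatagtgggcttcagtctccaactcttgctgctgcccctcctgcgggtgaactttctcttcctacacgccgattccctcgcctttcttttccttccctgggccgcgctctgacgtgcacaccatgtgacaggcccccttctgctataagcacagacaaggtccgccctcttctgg
Six2 upstream: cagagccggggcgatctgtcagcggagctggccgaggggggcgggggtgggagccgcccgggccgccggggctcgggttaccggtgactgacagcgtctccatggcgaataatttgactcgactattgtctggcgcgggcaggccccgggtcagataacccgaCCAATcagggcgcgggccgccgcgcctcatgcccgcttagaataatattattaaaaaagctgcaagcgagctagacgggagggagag

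The repeat was searched on both strands as any pair of half-sites, each being AGGTCA, or else the variant AGTTCA, or else the variant GGTTCA, or else the variant GGGTCA, in the same orientation with 5 bases between them. In Rarb it reads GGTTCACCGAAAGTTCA (chr14:16575513-16575529) and starts 53 bases before the annotated start. Of 32851 windows of that length over all genes in the promoter table, 29 held such a repeat (0.0883%). Among genes called higher it was in 2 of 150 windows, those of Rarb and of Tnfsf13b, a TNF family cytokine, and among genes called lower in 1 of 850, that of the embryonic globin Hbb-y. The 150 windows belong to 112 genes. Rarb was picked as a known target, and both of its half-sites, GGTTCA and AGTTCA, are among the variants searched. Its match was thus fixed beforehand, and no enrichment is read from these counts. Tnfsf13b was named after its values were seen. CCAAT, or ATTGG on the other strand, was in 33.8% of all windows, in 30.7% of the windows of genes called higher and in 30.5% of those of genes called lower. Crabp1, Dhrs3 and Rxrg had 1, 3 and 2 windows in the table with no repeat of this kind. A match of letters is not evidence of binding.

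Most matrix genes of the interstitium were not called. Of 32 tested members 1 was called higher (1.22% of all genes were) and 5 lower (7.21% of all genes were), with a median of −0.43. Col1a1, the fibrillar collagen chain of fibroblasts, was at 835 and 477 RPKM in Tdt+ cells, against 731 and 1013 RPKM in Tdt- cells, so the groups overlapped (−0.45 ± 0.50, adjusted p = 0.642). Loxl1, which crosslinks elastin, rose, with 65.1 and 59.4 RPKM in Tdt+ cells, against 17.7 and 23.7 RPKM in Tdt- cells (1.56 ± 0.23, adjusted p = 0.00687). Its relative Lox fell, with 13.4 and 8.90 RPKM in Tdt+ cells, against 36.5 and 42.7 RPKM in Tdt- cells (−1.76 ± 0.26, adjusted p = 0.00609). The proteoglycan Vcan fell most in this list, with 15.9 and 10.7 RPKM in Tdt+ cells, against 123 and 143 RPKM in Tdt- cells (−3.24 ± 0.25, adjusted p = 0.000700). Lum, a small leucine-rich proteoglycan, had 7.52 and 9.61 RPKM in Tdt+ cells, against 38.3 and 50.5 RPKM in Tdt- cells (−2.24 ± 0.25, adjusted p = 0.00215). Col14a1, a collagen associated with fibrils, had 13.2 and 8.52 RPKM in Tdt+ cells, against 38.7 and 64.3 RPKM in Tdt- cells (−2.13 ± 0.31, adjusted p = 0.00610), and Dcn, decorin, had 40.1 and 50.5 RPKM, against 92.4 and 126 RPKM (−1.24 ± 0.26, adjusted p = 0.0256). Mfap2, a microfibril protein, was at 284 and 280 RPKM in Tdt+ cells, against 147 and 133 RPKM in Tdt- cells, apart but not called (1.01 ± 0.28, adjusted p = 0.0699). With Tdt- library 1 left out, the list had 3 lower calls, without Tdt- library 2 it had 2 and without Tdt+ library 1 it had 16. The median was −0.09 with the length trend removed, −0.16 without Tdt+ library 2, −0.18 without Tdt- library 2, −0.65 without Tdt- library 1 and −0.75 without Tdt+ library 1. Loxl1, Lox and Dcn lost their calls without either Tdt- library, Col14a1 without Tdt- library 2, and Dcn also with the length trend removed.

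Of 12 genes of medullary and periureteric stroma none rose and 3 fell (7.21% of all genes did), with a median of −0.92. The 3 were Lum, Dcn and Tshz3, all of them already counted in the lists above. Bmp4, a growth factor around the ureter, was apart but not called, at 8.19 and 4.96 RPKM in Tdt+ cells, against 15.8 and 13.8 RPKM in Tdt- cells (−1.09 ± 0.28, adjusted p = 0.0558). The list had 1 call without either Tdt- library.

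Of 16 mural and mesangial genes, which mark known descendants of Foxd1 cells, none rose in Tdt+ cells and 2 fell (7.21% of all genes did), with a median of −0.66. The pericyte receptor Pdgfrb was at 87.8 and 59.0 RPKM in Tdt+ cells, against 53.5 and 75.2 RPKM in Tdt- cells, and its groups overlapped. Rgs5, a pericyte regulator of G protein signalling, was at 55.9 and 61.6 RPKM in Tdt+ cells, against 54.4 and 47.7 RPKM in Tdt- cells (0.20 ± 0.22, adjusted p = 0.635). Des, the muscle intermediate filament, fell, with 10.7 and 8.55 RPKM in Tdt+ cells, against 38.3 and 25.5 RPKM in Tdt- cells (−1.61 ± 0.27, adjusted p = 0.0105), as did the adhesion molecule Mcam (−1.16 ± 0.25, adjusted p = 0.0294). Acta2, smooth muscle actin, was at 9.51 and 46.7 RPKM in Tdt+ cells, against 19.2 and 82.0 RPKM in Tdt- cells, and Ren1, renin, at 0.790 and 7.27 RPKM, against 3.01 and 25.6 RPKM, so both were higher in library 2 of either group than in library 1. Of the renin-angiotensin list none of 4 tested members was called, among them the angiotensin receptor Agtr2, at 63.2 and 41.1 RPKM in Tdt+ cells, against 36.9 and 33.9 RPKM in Tdt- cells (0.52 ± 0.26, adjusted p = 0.292). Des and Mcam lost their calls without either Tdt- library. Without Tdt- library 2 the median of the mural and mesangial list was −0.26, and without Tdt+ library 1 it was −0.40, with 2 higher and 5 lower calls. Without Tdt+ library 2 the list had 4 lower calls.

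Secreted ligands, binding proteins and feedback genes that rose in Tdt+ cells came from several pathways, with 1 or 2 members each. Over all genes tested 1.22% were called higher and 7.21% lower. With so few calls upward, the counts only describe the lists. In the IGF list 2 of 13 rose, Igfbp6 and Igfbp3, and none fell. Igfbp3, the main carrier of IGFs in serum, had 140 and 148 RPKM in Tdt+ cells, against 40.9 and 61.1 RPKM in Tdt- cells (1.51 ± 0.27, adjusted p = 0.0138). In the BMP and TGF-beta list 1 of 20 rose and 6 fell. The one was Tgfb3, with 46.4 and 32.6 RPKM in Tdt+ cells, against 15.04 and 16.2 RPKM in Tdt- cells (1.27 ± 0.24, adjusted p = 0.0184). In the Wnt list 2 of 23 rose, the antagonists Sfrp1 and Dkk1, and 6 fell. Sfrp1 had 125 and 91.8 RPKM in Tdt+ cells, against 48.3 and 54.0 RPKM in Tdt- cells (1.05 ± 0.25, adjusted p = 0.0420), and Dkk1 had 16.9 and 23.7 RPKM, against 8.19 and 9.04 RPKM (1.13 ± 0.25, adjusted p = 0.0324). In the FGF list 1 of 18 rose, the feedback inhibitor Spry4, with 13.7 and 12.3 RPKM in Tdt+ cells, against 5.41 and 6.18 RPKM in Tdt- cells (1.04 ± 0.24, adjusted p = 0.0354), and 7 fell. In the PDGF, VEGF and angiopoietin list 1 of 17 rose, Vegfb (0.94 ± 0.22, adjusted p = 0.0384), and 7 fell. Of the tested members 5 in the BMP and TGF-beta list, 2 in the Wnt list, 7 in the FGF list and 4 in the PDGF list had passed the filter through the Tdt- libraries alone. The lower calls of the Wnt list were 2 without either Tdt- library and 11 without Tdt+ library 1, and those of the BMP and TGF-beta list were 3 without Tdt- library 2 and 10 without Tdt+ library 1. Without either Tdt- library the calls of Igfbp3, Tgfb3, Sfrp1, Dkk1, Spry4 and Vegfb were all lost. In TPM those of Tgfb3, Sfrp1, Dkk1, Spry4 and Vegfb were lost, and that of Vegfb also with the length trend removed.

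Ligands and receptors also fell. Rspo1, a potentiator of Wnt signals, had 0.115 and 1.16 RPKM in Tdt+ cells, against 46.0 and 31.3 RPKM in Tdt- cells (−4.65 ± 0.36, adjusted p = 0.000700). Pdgfa, a PDGF ligand, had 4.87 and 4.66 RPKM in Tdt+ cells, against 27.1 and 24.1 RPKM in Tdt- cells (−2.20 ± 0.23, adjusted p = 0.00182), and Cxcr4, the chemokine receptor, had 0.407 and 1.31 RPKM, against 18.5 and 8.17 RPKM (−2.89 ± 0.41, adjusted p = 0.00528). Their partners did not pass the test. Cxcl12, the ligand of Cxcr4, was at 84.2 and 58.4 RPKM in Tdt+ cells, against 43.6 and 37.1 RPKM in Tdt- cells (0.79 ± 0.26, adjusted p = 0.114), and Pdgfra, the receptor of Pdgfa, was at 114 and 78.7 RPKM, against 66.9 and 101 RPKM, with overlap. Fgf10 and Fgf1, ligands, had differences of −2.33 and −2.13, and Il17rd, an FGF feedback inhibitor, of −3.07, all called. In the netrin and slit list Ntn1 alone rose (1.22% of all genes did) and 5 of 12 fell (7.21% did). Those 5 were the ligand Slit1 and the receptors Unc5c, Unc5b, Robo4 and Robo2. Slit1 and Robo4 had passed the filter through the Tdt- libraries alone, as had Rspo1, Cxcr4, Fgf10, Fgf1 and Il17rd above. Slit1 had 0.201 and 0.159 RPKM in Tdt+ cells, against 9.03 and 9.65 RPKM in Tdt- cells (−3.13 ± 0.24, adjusted p = 0.000652), and Unc5c, a netrin receptor, had 13.3 and 8.18 RPKM, against 48.7 and 53.1 RPKM (−2.18 ± 0.27, adjusted p = 0.00323). Robo2 and Unc5b lost their calls without either Tdt- library, and Unc5c without Tdt- library 2.

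Other signalling lists had few calls upward. Of 14 Notch genes 9 fell (7.21% of all genes did) and none rose, and 3 of the 14 had passed the filter through the Tdt- libraries alone. Another target, Hes1, was not called, at 20.3 and 167 RPKM in Tdt+ cells, against 18.8 and 58.5 RPKM in Tdt- cells, with overlap. Among the 9 was the ligand Jag1, with 3.36 and 2.22 RPKM in Tdt+ cells, against 17.8 and 28.9 RPKM in Tdt- cells (−2.66 ± 0.31, adjusted p = 0.00267). The target Hey1 also fell (−2.07 ± 0.30, adjusted p = 0.00610) but lost its call without either Tdt- library. Without Tdt- library 1 the lower calls were 4 and without Tdt- library 2 they were 3. Of 10 hedgehog genes 1 fell (7.21% of all genes did), the receptor and target Ptch1 (−1.51 ± 0.32, adjusted p = 0.0270), which lost its call without Tdt- library 2 and with the length trend removed, and Boc, a coreceptor, was at 79.8 and 60.6 RPKM in Tdt+ cells, against 27.03 and 40.6 RPKM in Tdt- cells (1.05 ± 0.27, adjusted p = 0.0584). Of 15 Fat, Dachsous and Hippo genes 2 fell, again beside 7.21% of all genes, the atypical cadherins Fat1 (−1.50 ± 0.27) and Fat3 (−1.89 ± 0.29), both of them not called without Tdt- library 2 and Fat1 not without Tdt- library 1. Fat3 had passed the filter through the Tdt- libraries alone, the group where it is high. Fat4, the stromal cadherin that acts on nephron progenitors, was not called, at 25.1 and 16.2 RPKM in Tdt+ cells, against 24.2 and 35.9 RPKM in Tdt- cells. Fat4 is a long gene, and its difference of −0.53 ± 0.29 was 0.05 with the length trend removed.

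Of 21 tested genes of nephron progenitors 16 fell and none rose, with a median of −2.55, and of 16 genes of the early differentiating nephron 14 fell and 1 rose, Dkk1, with a median of −2.41. Of the first list 8 members and of the second 11 had passed the filter through the Tdt- libraries alone. Over all genes 1145 had passed so, and 526 of those were called lower, beside 7.21% of all genes tested. Pax2, a paired-box factor of cap mesenchyme and ureteric bud, was at 0.348 and 0.470 RPKM in Tdt+ cells, against 75.3 and 94.1 RPKM in Tdt- cells (−5.92 ± 0.24, adjusted p = 0.000121), a mean in Tdt+ cells of 0.483% of that in Tdt- cells. The homeobox gene Uncx followed, with 0.403 and 0.170 RPKM in Tdt+ cells, against 89.3 and 64.4 RPKM in Tdt- cells (−5.91 ± 0.27, adjusted p = 0.000121). Spock2, a testican proteoglycan, had 2.50 and 1.73 RPKM in Tdt+ cells, against 133 and 93.1 RPKM in Tdt- cells, and Eya1, the SIX2 partner, 0.218 and 0.218 RPKM, against 31.8 and 39.4 RPKM. Wnt4, which drives nephron progenitors into epithelium, had 0.303 and 0.714 RPKM in Tdt+ cells, against 28.5 and 30.6 RPKM in Tdt- cells (−4.35 ± 0.26, adjusted p = 0.000266). Lhx1, a LIM factor of the renal vesicle, was listed at 0 in both Tdt+ libraries, against 13.05 and 9.50 RPKM in Tdt- cells.

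Not all members of the nephron progenitor list were called. Gdnf, the ligand that drives ureteric branching, was at 58.1 and 22.6 RPKM in Tdt+ cells, against 21.4 and 12.97 RPKM in Tdt- cells, apart but not called (1.08 ± 0.43, adjusted p = 0.184). Sall1, a zinc finger factor, overlapped between the groups, at 50.4 and 20.5 RPKM in Tdt+ cells, against 52.8 and 48.3 RPKM in Tdt- cells (−0.63 ± 0.38). Wt1, the Wilms tumour factor of cap mesenchyme and podocytes, was at 53.6 and 32.5 RPKM in Tdt+ cells, against 83.2 and 89.8 RPKM in Tdt- cells (−1.03 ± 0.28, adjusted p = 0.0657). Itga8, an integrin chain of mesenchyme, was called lower, with 5.15 and 7.00 RPKM in Tdt+ cells, against 39.1 and 55.6 RPKM in Tdt- cells (−2.76 ± 0.27, adjusted p = 0.00144). When Tdt- library 1 was left out the list had 11 lower calls, and without Tdt- library 2 it had 12.

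The 15 genes with the largest differences downward, at a mean of 5 RPKM or more, were in order Pax2, Uncx, Six2, Spock2, Col2a1, Eya1, Rspo1, Crym, Cited1, Pax8, Col15a1, Wnt4, Sel1l3, Col18a1 and Moxd1. Col2a1, the collagen of cartilage, had 0.308 and 0.347 RPKM in Tdt+ cells, against 42.8 and 35.3 RPKM in Tdt- cells (−4.91 ± 0.25, adjusted p = 0.000121). The basement membrane zone collagens Col15a1 and Col18a1 had 0.416 and 0.401 RPKM, and 4.64 and 2.70 RPKM, in Tdt+ cells, against 22.8 and 39.0 RPKM, and 71.7 and 79.0 RPKM, in Tdt- cells. Moxd1, a monooxygenase related to dopamine beta-hydroxylase, had 0.342 and 0.231 RPKM in Tdt+ cells, against 25.2 and 15.5 RPKM in Tdt- cells (−4.02 ± 0.29, adjusted p = 0.000589). The means of these 15 genes in Tdt+ cells were at most 4.88% of those in Tdt- cells. All but Spock2 and Col18a1 had passed the filter through the Tdt- libraries alone, the group where they are high. Rspo1 and Cited1 were not called with no filter on low values.

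Markers of other cell types of the kidney were examined next. Of 16 tested endothelial genes 11 fell and none rose, with a median of −1.90, and 9 of the 16 had passed the filter through the Tdt- libraries alone. Over all genes tested 7.21% were called lower, and 526 of the 1145 that passed through the Tdt- libraries alone. Pecam1, the adhesion molecule CD31, had 0.0949 and 0.249 RPKM in Tdt+ cells, against 8.48 and 12.9 RPKM in Tdt- cells (−3.29 ± 0.28, adjusted p = 0.000800), and Flt1, a VEGF receptor, was listed at 0 in both Tdt+ libraries, against 2.36 and 2.66 RPKM in Tdt- cells. Ramp2, a receptor activity modifier that is not limited to vessels, was at 52.7 and 52.8 RPKM in Tdt+ cells, against 57.1 and 52.8 RPKM in Tdt- cells. Summed over the endothelial list the level was 82.8 and 95.9 RPKM in Tdt+ libraries, against 185 and 215 RPKM in Tdt- libraries, and Ramp2 made up most of the sum in Tdt+ cells.

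Of 12 leukocyte genes 11 fell, with a median of −2.38, and all 12 had passed the filter through the Tdt- libraries alone. Among all 1145 genes that passed so, 526 were called lower, so a fall was favoured by the filter. Csf1r, the macrophage growth factor receptor, had 0.354 and 0.551 RPKM in Tdt+ cells, against 5.11 and 14.1 RPKM in Tdt- cells (−2.73 ± 0.41, adjusted p = 0.00660), and Tyrobp and Adgre1 were listed at 0 in both Tdt+ libraries. Adgre1 lost its call with the length trend removed. The leukocyte list summed to 2.76 and 9.12 RPKM in Tdt+ libraries, against 46.1 and 137 RPKM in Tdt- libraries, and was higher in library 2 of both groups. Without Tdt- library 2 its lower calls were 6. The red cell list, led by globins, had sums of 29.0 and 194 RPKM in Tdt+ libraries, against 320.2 and 2459.7 RPKM in Tdt- libraries. Of its 10 tested members, 5 of which had passed through the Tdt- libraries alone, Hbb-y was called (−3.49 ± 0.76, adjusted p = 0.0291), though not without Tdt- library 1 or 2. The globins, too, were higher in library 2 of both groups, and Hba-a1 was at 3.54 and 35.8 RPKM in Tdt+ cells, against 64.4 and 543 RPKM in Tdt- cells. The list had 5 lower calls without Tdt- library 1 and 8 without Tdt+ library 2. Epor, the erythropoietin receptor, lay the other way, at 10.4 and 6.29 RPKM in Tdt+ cells, against 3.49 and 2.98 RPKM in Tdt- cells (1.11 ± 0.29, adjusted p = 0.0597). Reads of globin genes may be split among similar copies, which makes single globin values uncertain.

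In the epithelial lists, 6 of 10 podocyte genes, 5 of 7 tubule genes and 5 of 11 ureteric epithelium genes had passed the filter through the Tdt- libraries alone, where they are high. Among all 1145 genes that passed so, 526 were called lower, beside 7.21% of all genes tested. Of the 10 podocyte genes 7 were called lower, among them Podxl, podocalyxin, with 0.435 and 0.779 RPKM in Tdt+ cells, against 20.2 and 26.3 RPKM in Tdt- cells (−3.91 ± 0.27, adjusted p = 0.000532). Of the 7 tubule genes 4 fell, and their levels were low in both groups. Of the 11 ureteric epithelium genes 6 fell, including the zinc finger factor Gata2 (−3.07 ± 0.26, adjusted p = 0.000862) and the cadherin Cdh1 (−1.96 ± 0.33, adjusted p = 0.0105), and Wnt11, a ligand of the ureteric tip, was at 16.8 and 8.19 RPKM in Tdt+ cells, against 6.39 and 6.80 RPKM in Tdt- cells (0.75 ± 0.33, adjusted p = 0.230). Of 3 neural genes tested 1 fell, Elavl4 (−1.62 ± 0.24), and neither of 2 adrenal cortex genes was called. Elavl4 had passed the filter through the Tdt- libraries alone, the group where it is high. Neural crest marker Sox10 was at 0 in both Tdt+ libraries and under 1 RPKM in both Tdt- libraries. The podocyte list had 4 calls without Tdt- library 2, the ureteric list 3 and the tubule list 2 (as also with the length trend removed), and Cdh1 and Elavl4 were then not called.

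**Figure D4:**
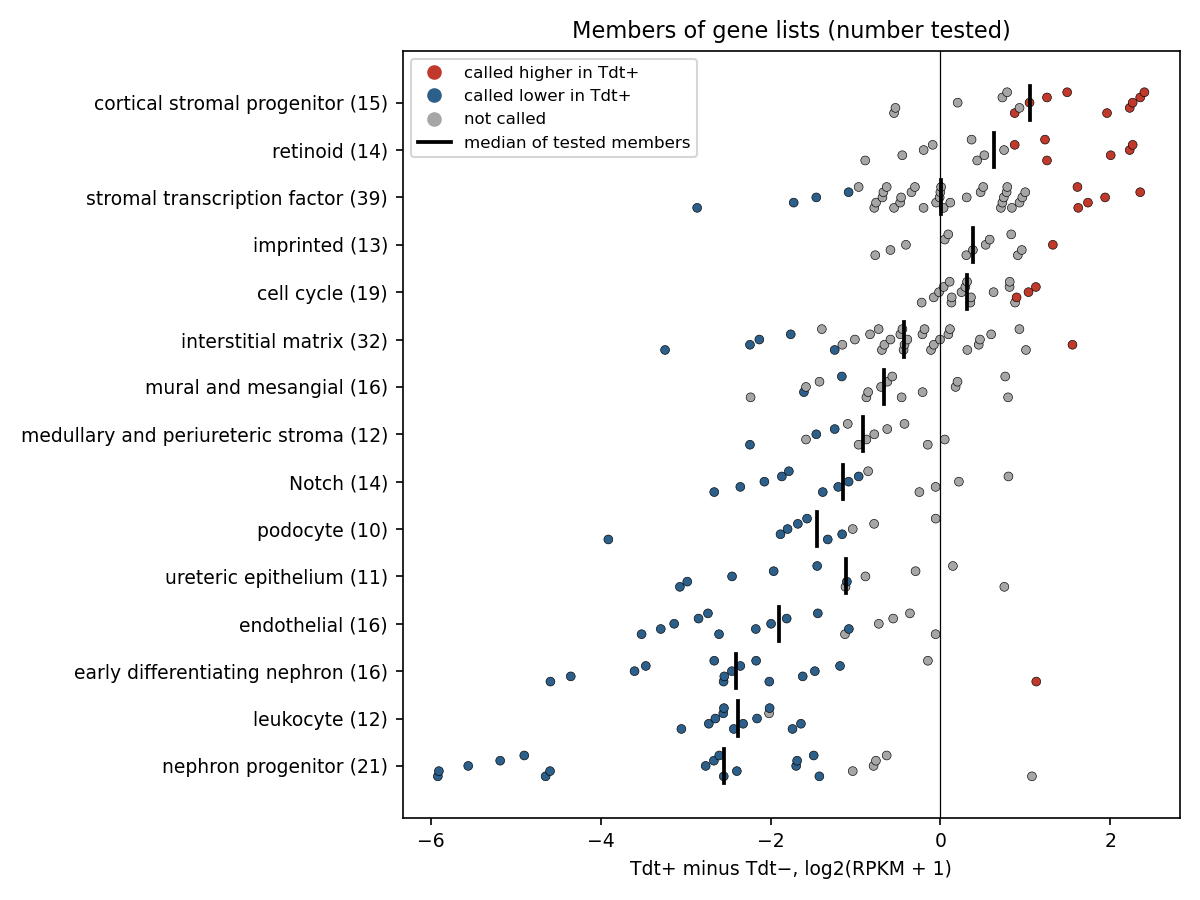
Differences between Tdt+ and Tdt- cells (log2 of RPKM + 1) of the tested members of 15 gene lists, with 1 point per gene and a bar at the median. Cortical stromal and retinoid genes lie to the right with medians of 1.05 and 0.63, stromal transcription factors centre on 0.01, and nephron progenitor, early nephron, endothelial and leukocyte lists lie to the left with medians of −1.90 to −2.55.

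Hox genes carry positional identity. Of 20 genes of paralog groups 1 to 8 none rose and 4 fell, Hoxb3, Hoxb4, Hoxb5 and Hoxb8. Of 11 genes of groups 9 to 13 Hoxb9 and Hoxd12 fell. Over all genes tested 7.21% were called lower. Hoxb8 had 0.917 and 1.26 RPKM in Tdt+ cells, against 12.4 and 13.1 RPKM in Tdt- cells (−2.73 ± 0.25, adjusted p = 0.00115), and Hoxb9 had 6.83 and 6.37 RPKM, against 30.2 and 24.7 RPKM (−1.90 ± 0.23, adjusted p = 0.00327). Hoxb8 had passed the filter through the Tdt- libraries alone, the group where it is high. Hoxc10, by contrast, was not called, at 77.4 and 83.5 RPKM in Tdt+ cells, against 62.4 and 56.7 RPKM in Tdt- cells (0.43 ± 0.22, adjusted p = 0.305). Hoxb3, Hoxb4 and Hoxb5 lost their calls without Tdt- library 1 or 2, and Hoxb9 and Hoxd12 without Tdt- library 1.

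Of 13 imprinted genes 1 rose (1.22% of all genes did). It was Dlk1, a membrane ligand of the Notch family known from progenitors, with 90.2 and 85.0 RPKM in Tdt+ cells, against 28.7 and 41.1 RPKM in Tdt- cells (1.33 ± 0.25, adjusted p = 0.0169). Mest, at 1601 and 1622 RPKM in Tdt+ cells, against 861 and 797 RPKM in Tdt- cells, was apart but not called (0.96 ± 0.53, adjusted p = 0.332). Of 19 cell cycle genes 3 rose (1.22% of all genes did), Ccne1, Cdk1 and Birc5, with adjusted p between 0.0455 and 0.0497, and none fell. Their calls were lost in TPM, after quantile normalisation and without either Tdt- library, so the count was then 0, and that of Ccne1 also with the length trend removed. Without Tdt+ library 1 the count was 6 and without Tdt+ library 2 it was 5. Ccna2, a cyclin of S and G2 phase, was not called, at 104 and 102 RPKM in Tdt+ cells, against 89.2 and 79.0 RPKM in Tdt- cells (0.29 ± 0.24). The CDK inhibitor Cdkn1a fell, with 0.362 and 0.524 RPKM in Tdt+ cells, against 2.71 and 4.31 RPKM in Tdt- cells (−1.62 ± 0.27, adjusted p = 0.00962). It had passed the filter through the Tdt- libraries alone, the group where it is high. Dlk1 lost its call without either Tdt- library and in TPM, and Cdkn1a without Tdt- library 2 and after quantile normalisation.

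Of 20 immediate early and heat shock genes, which respond to handling of tissue, none was called, with a median of 0.44. Their summed level was 1045 and 1942 RPKM in Tdt+ libraries, against 644 and 1384 RPKM in Tdt- libraries, and so higher in library 2 of both groups. A fit with the library number as a block called 5 of the 20 higher and 2 lower. Among all 12384 genes tested it called 613 higher and 1694 lower. The ribosomal precursor Rn45s was at 1928 and 360.5 RPKM in Tdt+ libraries, against 2716 and 544.5 RPKM in Tdt- libraries, and so lower in library 2 of both groups. Without Tdt+ library 1 the immediate early and heat shock list had 5 higher calls and 1 lower. The part of these measures in the comparison was not tested. Xist, the RNA of the inactive X chromosome, was called lower, at 12.9 and 9.55 RPKM in Tdt+ cells, against 39.9 and 29.7 RPKM in Tdt- cells (−1.55 ± 0.26, adjusted p = 0.0102). Of 4 Y-linked genes limma called none, and 1 of them, Uty, was under an unadjusted p of 0.05. Uty was at 1.997 and 1.29 RPKM in Tdt+ cells, against 4.70 and 3.91 RPKM in Tdt- cells (−1.01 ± 0.26, adjusted p = 0.0550), and Kdm5d and Ddx3y were also lower without overlap (−0.62 ± 0.28 and −0.63 ± 0.29), while Eif2s3y overlapped (−0.0564 ± 0.24). Xist, a long transcript, lost its call with the length trend removed and without either Tdt- library.

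The genes called at E14.5 were then read in the E16.5 table, which had been normalised separately, as a description with no test. There GFP+ and GFP- cells of Six2TGC/+ kidneys, and SIX2+ and SIX2- cells of the nephrogenic zone (the outer rim where nephrons form), were given with 3 libraries each. GFP+ and SIX2+ are the nephron progenitor groups. Of the 151 genes higher in Tdt+ cells 144 were measured at E16.5, and 122 of them (84.7%) had all GFP+ libraries below all GFP- libraries, against 24.4% of all genes. Likewise 122 (84.7%) had all SIX2+ libraries below all SIX2- libraries, against 24.9% of all genes. In the opposite sense 1 gene, Scx, a bHLH factor of tendon, lay above in GFP+ and 3 lay above in SIX2+ (Scx, Alms1-ps2 and Rsc1a1). These 3 were named after their values were seen.

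Ntn1 had 1.24 ± 0.781 RPKM in GFP+ cells and 136 ± 57.3 RPKM in GFP- cells (mean ± SD, n = 3), and Twist1 0.403 ± 0.229 and 20.4 ± 2.51 RPKM. Foxd1 itself was less divided, with 36.02 ± 7.91 RPKM in GFP+ cells and 78.7 ± 21.5 RPKM in GFP- cells. Aldh1a2 had 292 ± 14.8 RPKM in GFP+ cells and 393 ± 89.2 RPKM in GFP- cells, and 112 ± 23.97 RPKM in SIX2+ cells and 342 ± 81.0 RPKM in SIX2- cells. Crabp2 overlapped in both sorts, with 37.8 ± 5.09 RPKM in GFP+ cells and 51.1 ± 15.9 RPKM in GFP- cells, and 53.9 ± 9.87 and 53.7 ± 18.3 RPKM in SIX2+ and SIX2- cells. Of the 14 leading genes of Tdt+ cells given above, only Crabp2 overlapped between GFP+ and GFP- cells, and only Crabp2 between SIX2+ and SIX2- cells.

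**Figure D5:**
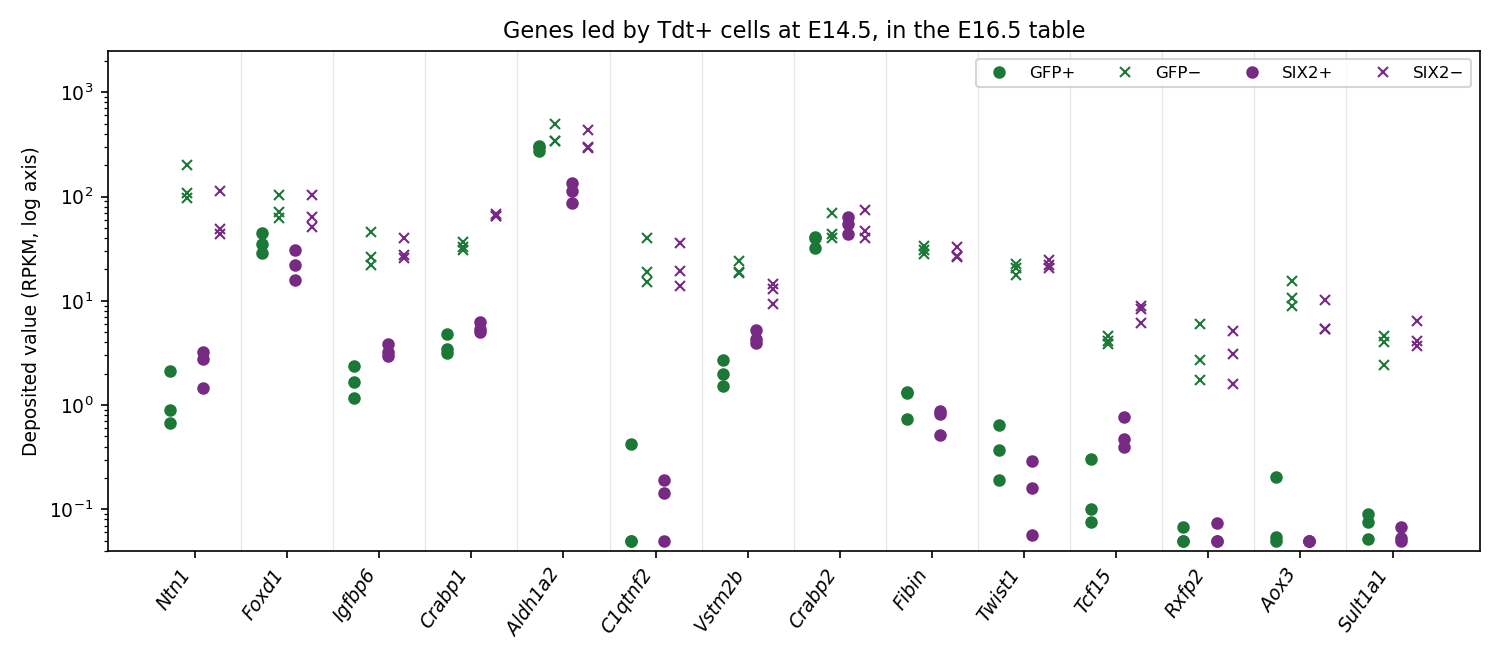
Values (RPKM, log axis, with values under 0.05 drawn at 0.05) at E16.5 of the 14 genes led by Tdt+ cells, in 3 libraries each of GFP+ and GFP- (green) and SIX2+ and SIX2- cells (purple). Most genes lie far lower in GFP+ and SIX2+ cells (dots) than in GFP- and SIX2- cells (crosses), while Crabp2 overlaps in both sorts.

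The 893 genes lower in Tdt+ cells were not of one kind at E16.5. Of 873 measured there, 401 (45.9%) had all GFP+ libraries above all GFP- libraries, against 28.7% of all genes, and 236 (27.03%) had them all below, against 24.4%. For SIX2+ against SIX2- cells 357 (40.9%) were above, against 22.5% of all genes, and 273 (31.3%) below, against 24.9%. Col2a1, Moxd1 and Sel1l3 were among those higher in nephron progenitors, with Col2a1 at 97.4 ± 35.8 RPKM in GFP+ cells and 5.27 ± 5.31 RPKM in GFP- cells. Vcan was as well, at 185 ± 59.0 RPKM in GFP+ cells and 41.7 ± 10.3 RPKM in GFP- cells. The matrix genes Lum, Dcn, Col14a1 and Lox, although lower in Tdt+ cells at E14.5, also had all GFP+ libraries below all GFP- libraries, with Lum at 0.666 ± 0.356 RPKM in GFP+ cells and 37.0 ± 17.6 RPKM in GFP- cells, and Dcn at 1.91 ± 0.391 and 124 ± 47.1 RPKM. Col15a1 had the same pattern, at 0.324 ± 0.0564 RPKM in GFP+ cells and 28.4 ± 15.3 RPKM in GFP- cells. The tables differ in stage, allele and sort, which cannot be told apart.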

How the data were processed

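Poly(A) RNA of sorted mouse embryonic kidney cells was sequenced with a stranded mRNA kit, per the labels' protocols. TopHat2, Partek and the build mm10 are named in the submitters' processing notes, and the sources used here do not give their settings. The tables are titled as TPM, but their column sums differ (342196 to 453324 at E14.5, coefficient of variation 13.8%) and become nearly equal when multiplied by exonic length (2.94%), so the deposited values were treated as RPKM made by the authors. No read counts were used; relative depth was estimated from the steps between low values. The design assumed a normalised unit, and its test was kept.

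From these values differences were computed on log2(RPKM + 1) with limma 3.58.1 in R 4.3.3, with an intensity trend, for Tdt+ against Tdt- libraries (2 each) and with no block. Genes needed a value of 1 or more in at least 2 libraries, and an adjusted p (Benjamini-Hochberg) under 0.05 made a call. The procedure was tested on simulated data. Gene lengths and coordinates came from GENCODE M21, which held 96.2% of the names, and promoter sequence from RefSeq (GRCm38.p6). 27 names turned into dates were kept as unnamed entries. Members and lists were chosen with earlier results of these data known. Genes named were members of the lists, the 15 with the largest difference in each direction among called genes with a mean of 5 or more in the higher group and no overlap, and others said to be chosen after their values were seen. 1 of the 15 upward is not reported here. Alternatives changed the pseudocount, filter, scaling, trend, block or length correction, or left out a library.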

Additional observations from a re-analysis of the deposited data

How the results depend on the processing

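Against 151 genes called higher and 893 lower, 8 higher and 221 lower were called with no filter on low values, 115 higher and 408 lower with a filter at 5 RPKM, 61 higher and 1064 lower in TPM, 239 higher and 483 lower after quantile normalisation and 202 higher and 575 lower with the length trend removed, which was chosen after seeing the data. Leaving out 1 library gave 9 to 1278 higher and 333 to 2058 lower; the lone library left in a group is then assumed to vary like the others. The labels' numbers are not stated to pair libraries; a fit with the replicate number as a block called 613 higher and 1694 lower, and the deviations of same-numbered libraries correlated at 0.40. With that block the red cell list had 9 lower calls and 1 higher, and the mural and mesangial list 8 lower and 1 higher. The medullary and periureteric list then had 8 lower calls and none higher. The stromal transcription factor list had 13 higher and 7 lower. Of 101 called genes named, 28 kept their call in all settings tried, 45 kept it whichever library was left out, and 70 lost it with no filter. Differences changed sign under some settings in genes that were not called. In TPM these were Pdgfra (−0.0222), Pdgfrb (−0.0461) and Rgs5 (−0.0228). Under median-of-ratios scaling they were Eif2s3y (0.0375) and Ramp2 (0.042), and with the length trend removed Eif2s3y (0.0486) and Fat4 (0.0532). After quantile normalisation Cyp26b1 was at 0.24. With 1 library left out the range was −1.96 to 0.22 for Acta2, −0.49 to 0.0932 for Cyp26b1, −0.24 to 0.13 for Eif2s3y, −0.0868 to 0.49 for Pdgfra, −0.10 to 0.46 for Pdgfrb and −1.75 to 0.66 for Rn45s. The causes were not tested. The shallower Tdt+ libraries limit the precision of low values in Tdt+ cells.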

Other observations

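Genes of the basement membrane, the sheet of matrix under epithelium and endothelium, were on no list and were chosen after their values were seen. Col4a1, a chain of the main collagen IV network, was at 68.8 and 52.5 RPKM in Tdt+ cells, against 334 and 414 RPKM in Tdt- cells (−2.61 ± 0.29, adjusted p = 0.00214). Its partner Col4a2 was at 54.5 and 32.0 RPKM in Tdt+ cells, against 220 and 247 RPKM in Tdt- cells (−2.45 ± 0.30, adjusted p = 0.00346). The laminin chains Lama1 and Lama5 also fell. Lama1 was at 2.35 and 0.872 RPKM in Tdt+ cells, against 11.6 and 15.7 RPKM in Tdt- cells (−2.53 ± 0.34, adjusted p = 0.00439), and Lama5 was at 2.38 and 1.01 RPKM in Tdt+ cells, against 13.9 and 13.9 RPKM in Tdt- cells (−2.51 ± 0.31, adjusted p = 0.00323). Lama1 had passed the filter through the Tdt- libraries alone and was not called without Tdt- library 2. The linker Nid1 was apart but not called, at 103 and 60.3 RPKM in Tdt+ cells, against 120 and 138 RPKM in Tdt- cells (−0.70 ± 0.31, adjusted p = 0.229), and so was the laminin chain Lamc1, at 58.5 and 25.8 RPKM in Tdt+ cells, against 75.2 and 108 RPKM in Tdt- cells (−1.19 ± 0.38, adjusted p = 0.111). All 6 are long transcripts, and long genes were lower in Tdt+ cells on the whole; the part of length was not tested.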
